A study of Mus musculus with 14 samples.

Results

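The CXC chemokines Cxcl1, Cxcl2, Cxcl5, Cxcl9, Cxcl10, Cxcl12, Cxcl14 and Cxcl16 were followed in bulk RNA sequencing of mouse kidneys after renal ischemia/reperfusion injury (IRI), a model of acute kidney injury in which blood flow to the kidney is stopped and then restored. The members are a list of gene symbols, drawn up with earlier results of these data known from among the CXC ligands, and all 8 were present among the 24411 gene symbols of the count tables. Other genes of the family were described beside them as 7 other CXC ligands and 8 CXC receptors. All animals were male C57/B6 mice of 8 weeks. Day 0 comprised 4 libraries, day 1 after IRI 5 libraries and day 3 after IRI 5 libraries. Nothing in the labels states that the libraries of a day came from separate animals, so p-values measured the spread between these libraries only, and how long the blood flow was stopped and whether day 0 kidneys had sham surgery were not given in the sources used here. The libraries carry numbers with 1 digit or with 3 digits. All day 0 libraries, replicates 3, 4 and 5 of day 1 and replicates 4 and 5 of day 3 have 1-digit numbers, whereas replicates 1 and 2 of day 1 and replicates 1, 2 and 3 of day 3 have 3-digit numbers. What the number format stands for was not given, but the formats differed in many genes within a day, so log2 changes of the members are given over all libraries and, for those tested, also by format.

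CXC chemokines are small secreted proteins that guide leukocytes along gradients. Ligands with the amino acids Glu-Leu-Arg before their first cysteines, among them Cxcl1, Cxcl2 and Cxcl5, bind Cxcr2 and draw neutrophils into injured tissue. They are classic early targets of NF-kB and are further raised by IL-17 and IL-1. Cxcl9 and Cxcl10 lack that motif, are induced by interferons and draw activated T cells and NK cells through Cxcr3. Cxcl12 is made constitutively by stromal, endothelial and some epithelial cells and acts through Cxcr4, with Ackr3 as a scavenging receptor. Cxcl14 is a conserved ligand of epithelia, and Cxcl16 is a membrane-bound ligand of Cxcr6 that ADAM proteases release from the cell surface.

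In the GRCm38 assembly (mm10, GENCODE M21 annotation) 5 of the members lie on chromosome 5. Cxcl5 (ENSMUSG00000029371.7) occupies chr5:90759360-90761624, Cxcl1 (ENSMUSG00000029380.11) chr5:90891241-90893115 and Cxcl2 (ENSMUSG00000058427.10) chr5:90903871-90905938, all on the plus strand and each with at most 4 exons. Cxcl9 (ENSMUSG00000029417.9) at chr5:92321347-92328079 and Cxcl10 (ENSMUSG00000034855.13) at chr5:92346638-92348889 lie on the minus strand, and Cxcl10 falls wholly inside Art3, a gene of the plus strand. Cxcl12 (ENSMUSG00000061353.11) lies at chr6:117168535-117181367, Cxcl14 (ENSMUSG00000021508.11) at chr13:56288643-56296551 and Cxcl16 (ENSMUSG00000018920.11) at chr11:70453983-70459984, where it overlaps the opposite-strand gene Zmynd15 by 552 bases. Reads were counted by strand, and the strand kept 17887 reads for Cxcl16 where unstranded counting left 15140. Of the 50-base words in the annotated transcripts of Cxcl2, 5.84% also occur in Cxcl3, so a small share of reads could not be assigned between these neighbours. Cxcl1 shared no such word with another gene.

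The promoters of Cxcl1, Cxcl2, Cxcl10, Cxcl12 and Cxcl14 are shown, the members that passed the test against day 0 and had an entry. RefSeq windows of 250 bases before the transcript start (GRCm38.p6) were matched for 6 of the 8 members, with no entry for Cxcl5 and Cxcl16. The windows are chr5:90890995-90891244 on the plus strand for Cxcl1, chr5:90903649-90903898 on the plus strand for Cxcl2, chr5:92348890-92349139 on the minus strand for Cxcl10, chr6:117168285-117168534 on the plus strand for Cxcl12 and chr13:56296552-56296801 on the minus strand for Cxcl14. The last 4 bases of the Cxcl1 window and the last 28 of the Cxcl2 window lie inside the GENCODE gene. Capitals mark matches to the NF-kB consensus, to the interferon response core GAAANNGAAA, to TTCNNNGAA or to the AP-1 letters TGANTCA, searched on either strand.
Cxcl1: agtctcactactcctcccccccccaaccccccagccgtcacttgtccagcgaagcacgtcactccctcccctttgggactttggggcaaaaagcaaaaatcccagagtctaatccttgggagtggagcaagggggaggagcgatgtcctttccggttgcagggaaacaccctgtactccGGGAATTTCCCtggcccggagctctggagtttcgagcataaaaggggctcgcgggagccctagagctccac
Cxcl2: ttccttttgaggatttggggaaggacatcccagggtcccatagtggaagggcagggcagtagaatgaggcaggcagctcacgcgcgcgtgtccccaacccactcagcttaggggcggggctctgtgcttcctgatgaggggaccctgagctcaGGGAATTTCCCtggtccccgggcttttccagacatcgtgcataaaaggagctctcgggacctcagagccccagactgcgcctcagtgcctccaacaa
Cxcl10: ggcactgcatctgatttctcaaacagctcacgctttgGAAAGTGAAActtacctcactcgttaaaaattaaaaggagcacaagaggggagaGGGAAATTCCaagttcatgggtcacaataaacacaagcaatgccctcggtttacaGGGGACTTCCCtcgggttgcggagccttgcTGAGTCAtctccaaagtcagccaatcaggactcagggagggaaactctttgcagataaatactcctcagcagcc
Cxcl12: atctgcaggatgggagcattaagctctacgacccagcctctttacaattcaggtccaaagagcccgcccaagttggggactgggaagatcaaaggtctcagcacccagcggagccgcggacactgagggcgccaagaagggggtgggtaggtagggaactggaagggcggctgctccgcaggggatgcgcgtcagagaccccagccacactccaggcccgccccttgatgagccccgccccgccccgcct
Cxcl14: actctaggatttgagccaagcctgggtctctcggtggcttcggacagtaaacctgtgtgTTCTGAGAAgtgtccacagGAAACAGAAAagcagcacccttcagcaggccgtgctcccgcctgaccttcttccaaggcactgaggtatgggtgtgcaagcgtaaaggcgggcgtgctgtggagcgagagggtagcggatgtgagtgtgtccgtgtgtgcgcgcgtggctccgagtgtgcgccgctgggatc
Cxcl1 and Cxcl2 held the same NF-kB match GGGAATTTCC, 71 to 62 bases before the start in Cxcl1 and 97 to 88 bases before it in Cxcl2, and each overlaps a match on the other strand shifted by 1 base. The longest run shared by these windows, GGGAATTTCCCTGG, was 14 bases long and occurred in 2 of the 32817 promoter windows of that length, those of Cxcl1 and Cxcl2. The Cxcl10 window held an NF-kB match 159 to 150 bases before the start, 2 overlapping ones from 104 to 94 bases before it, the interferon core GAAAGTGAAA at 213 to 204 and TGAGTCA at 74 to 68. In the Cxcl14 window GAAACAGAAA stood 172 to 163 bases before the start and TTCTGAGAA, a match to TTCNNNGAA, 191 to 183 before it. Cxcl9 held TATAAA 195 to 190 bases before its start, and Cxcl12 held none of the 5 motifs searched. Among all windows, 7.25% held an NF-kB match, 2.97% GAAANNGAAA, 7.02% TTCNNNGAA, 6.75% TGANTCA and 12.4% TATAAA. These matches describe letters in the windows, and binding was not measured.

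Each library held 12485579 to 20476979 reads assigned to genes, and 28.99% to 38.34% of all counted reads fell outside genes or on several genes. Levels are CPM, each gene's count scaled to a common library total by the trimmed mean of M values (TMM). At these depths the floor of 3 reads corresponded to 0.1465 to 0.2403 CPM. Of the symbols, 14300 passed the filter on low counts and were tested with edgeR's quasi-likelihood test and Benjamini-Hochberg adjustment (threshold 0.05), among them 7 of the 8 members. Cxcl9, which never exceeded 20 reads in a library, was not. Markers of kidney tubules were high in every library, with 6 proximal tubule markers at a summed 1717 to 12180 CPM, and Umod, the thick limb glycoprotein, at a mean of 3862 CPM. Markers of infiltrating cells were summed as well. Of the neutrophil list, 9 of 10 genes, for which Ly6g was not analysed here, summed to 1.64 to 2.07 CPM at day 0, 47.0 to 210 CPM at day 1 and 17.2 to 476 CPM at day 3. The 11 macrophage markers summed to 137 to 228 CPM at day 0, 92.7 to 160 CPM at day 1 and 134 to 493 CPM at day 3, and at day 1 Cd68 and Itgam were higher and Csf1r lower by edgeR. In bulk tissue, fewer cells of a type and less RNA per cell cannot be told apart.

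At day 0 Cxcl12 and Cxcl16 made up most of the summed level of the 8 members. Per kilobase of exon, Cxcl12 stood at 16.4 ± 2.87 CPM per kb (mean ± SD, n = 4) and Cxcl16 at 15.8 ± 0.987 CPM per kb, a difference smaller than their spread. Cxcl14 followed at 2.27 ± 0.439 CPM per kb, and Cxcl1 at 0.682 ± 0.241 and Cxcl10 at 0.669 ± 0.116 CPM per kb could not be ordered beyond their spread. Cxcl9 stood at 0.201 ± 0.145, and Cxcl5 and Cxcl2 were at the bottom with 0.0247 ± 0.0312 and 0.0222 ± 0.0290 CPM per kb. At day 1 the order had turned. Cxcl1 led at 110 ± 82.6 CPM per kb (n = 5), rank 492 of 23334 genes against 11434 at day 0, and Cxcl2 at 36.8 ± 32.7 and Cxcl16 at 27.8 ± 4.99 CPM per kb overlapped with it and with each other. Cxcl14, Cxcl12 and Cxcl10 came next at 7.88 ± 4.02, 5.09 ± 0.514 and 3.41 ± 2.52 CPM per kb, not separated by their spread. These means pool formats that differed. In the 1-digit libraries of day 1 Cxcl1 led at 169 ± 23.9 CPM per kb (n = 3), but in the 3-digit libraries the mean of Cxcl16 stood first at 26.8 ± 9.16, that of Cxcl1 next at 21.7 ± 0.383 (rank 2285 of 23334 genes) and that of Cxcl2, at 1.33 ± 0.582 CPM per kb, under Cxcl14 and Cxcl12 (n = 2). Cxcl16 and Cxcl1 were not separated there by their spread, and in day 1 replicate 1 Cxcl1 had the larger share (35.3% against 33.6%). At day 3 Cxcl16 led at 28.5 ± 3.58 CPM per kb, followed by Cxcl1 at 14.6 ± 9.59, Cxcl12 at 12.1 ± 4.53 and Cxcl14 at 7.43 ± 4.16 CPM per kb, of which each overlapped with its neighbours. By their means, Cxcl16 and Cxcl1 held the first places in either format of day 3. In its 1-digit libraries, Cxcl1 at 10.9 ± 9.95 CPM per kb was not separated from Cxcl14 at 9.48 ± 5.17 or Cxcl12 at 9.30 ± 5.58. In day 3 replicates 3 and 4 Cxcl12 stood above Cxcl1. Cxcl5 and Cxcl9 were the lowest members on both days after injury, at most 0.402 and 0.0612 CPM per kb on average.

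**Figure D1:**
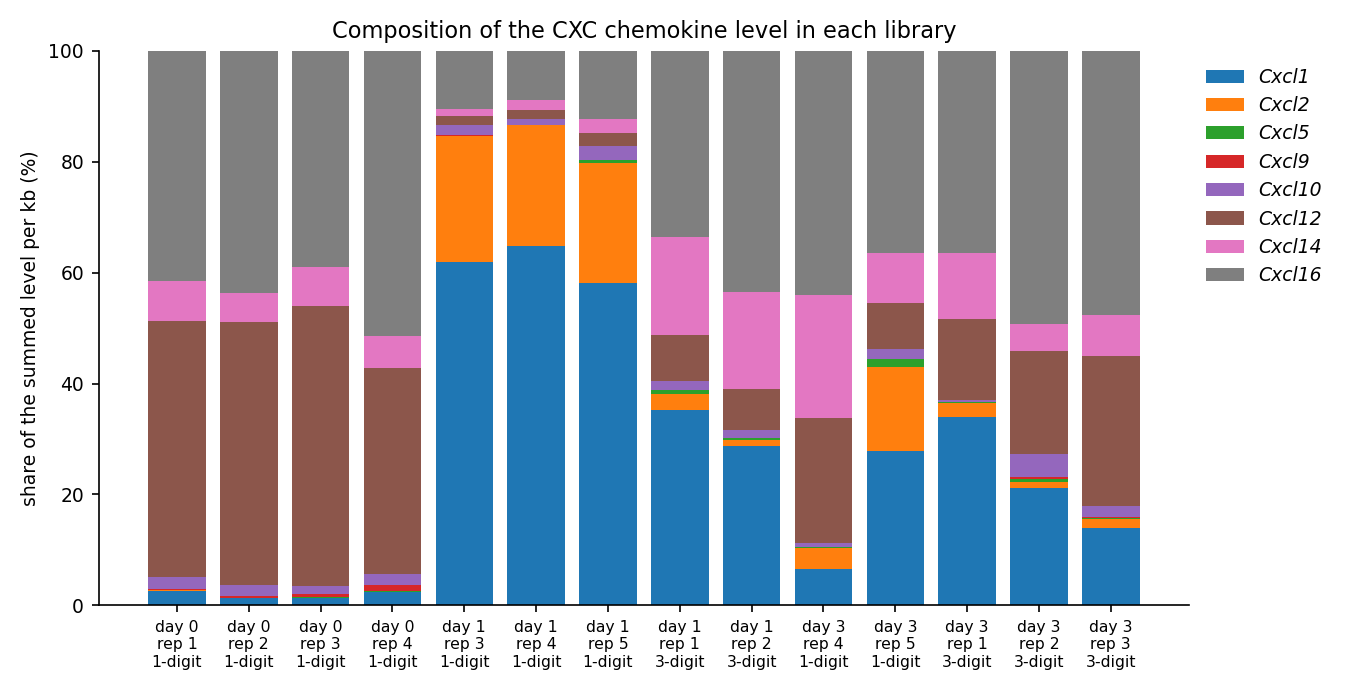
Share of each CXC chemokine in the summed level per kilobase of the 8 members (y axis, percent) in each of the 14 libraries, ordered by day and number format. Cxcl1, Cxcl2 and Cxcl5 together took 1.40% to 2.70% of the sum at day 0, 80.3% to 86.7% in the 1-digit libraries of day 1 and 30.1% to 38.9% in its 3-digit libraries.

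The neutrophil-attracting ligands Cxcl1, Cxcl2 and Cxcl5 took a larger part of the members' summed level after injury. Their joint share of the summed level per kilobase was 1.40% to 2.70% at day 0, 30.1% to 86.7% at day 1 and 10.6% to 44.4% at day 3, with no overlap between day 0 and either later day. The summed level itself was 33.2 to 37.7 CPM per kb at day 0, 60.6 to 291 at day 1 and 59.2 to 85.8 at day 3.

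Cxcl1, the mouse ligand also known as KC, stood at 1.84, 0.942, 0.884 and 1.45 CPM in day 0 replicates 1 to 4. At day 1 it reached 40.1 and 41.1 CPM in replicates 1 and 2 and 331, 354 and 267 CPM in replicates 3, 4 and 5. Every day 1 library lay above every day 0 library, and within day 1 the 3-digit libraries lay well under the others. At day 3 the values were 54.6, 24.5, 17.4, 7.20 and 33.6 CPM, still above all of day 0, but overlapping with day 1 through its 3-digit libraries. The log2 fold change was 7.32 ± 0.91 (SE) at day 1 (edgeR adjusted p = 6.46e-05) and 4.41 ± 0.81 at day 3 (edgeR adjusted p = 0.00134), ranks 32 and 121 of the 14300 genes tested. From day 1 to day 3 Cxcl1 fell by 2.91 on the log2 scale (edgeR adjusted p = 0.0106). That fall was carried by the 1-digit libraries, where the log2 change was -3.96 ± 0.60 (edgeR adjusted p = 0.000622), while the 3-digit libraries gave -0.34 ± 0.50 (edgeR adjusted p = 0.693).

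Cxcl2, also called MIP-2, was all but absent at day 0, with 1, 0, 2 and 0 reads or 0.0575, 0, 0.126 and 0 CPM. At day 1 it rose to 3.61 and 1.91 CPM in the 3-digit libraries and to 134, 131 and 110 CPM in the 1-digit libraries. Day 3 values were 4.48, 1.30, 2.13, 4.71 and 20.3 CPM, so all injured kidneys lay above all day 0 kidneys. With 3 reads in all at day 0, a fold is best read from pooled reads: 5738 reads at day 1 gave a ratio of 1488 (95% exact counting interval 509 to 7219) and 500 reads at day 3 a ratio of 142 (48.4 to 692), both covering counting error only. The fitted log2 fold changes were 10.50 ± 1.86 at day 1 (edgeR adjusted p = 0.000773), rank 2 of 14300, and 6.95 ± 1.90 at day 3 (edgeR adjusted p = 0.0129), and they depend on the prior count. The fall from day 1 to day 3, by 3.55 on the log2 scale, was just past the threshold (edgeR adjusted p = 0.0324). With any of day 1 replicates 3, 4 or 5 or day 3 replicates 1 to 4 left out it was still -3.25 to -3.46 but no longer past the threshold (edgeR adjusted p = 0.0555 to 0.0740), and it was -0.05 ± 0.58 within the 3-digit libraries (edgeR adjusted p = 0.964).

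Cxcl5, also called LIX, stayed low: 0, 0, 0.0632 and 0.121 CPM at day 0, then 0.808, 0.363, 0.0682, 0.572 and 1.93 CPM at day 1 and 0.356, 0.732, 0.248, 0.269 and 1.76 CPM at day 3. Day 1 replicate 3 lay inside the day 0 range, whereas day 3 lay wholly above it. The pooled reads, 3 at day 0, 58 at day 1 and 53 at day 3, gave ratios of 15.0 (95% exact counting interval 4.90 to 75.1) and 15.1 (4.89 to 75.5), for counting error only. Fitted log2 fold changes were 3.81 ± 1.07 at day 1 (edgeR adjusted p = 0.0117) and 3.66 ± 1.08 at day 3 (edgeR adjusted p = 0.0186). By format they were 4.0 and 3.48 at day 1 (1-digit and 3-digit, edgeR adjusted p = 0.00943 and 0.0399) and 4.27 and 3.09 at day 3 (edgeR adjusted p = 0.00967 and 0.0670). The day 3 call was lost without day 0 replicate 1 or without day 0 replicate 2 (edgeR adjusted p = 0.0558 and 0.0543).

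Neutrophil markers rose with these ligands: 5 of the 6 tested were higher at day 1 and at day 3 (all but Ltf), where 23.3% and 19.5% of all tested genes were higher. These were Csf3r, Retnlg, Ngp, S100a9 (log2 fold change 6.64 ± 0.98 at day 1, edgeR adjusted p = 0.00022) and S100a8 (6.55 ± 1.11, edgeR adjusted p = 0.000559), the last 2 being the subunits of calprotectin. Retnlg and Ngp, with 1 read each over day 0, S100a8, with 18, and S100a9, with 33, passed the filter on low counts through the later days, so the count is a description. Mpo, Elane and Camp, granule genes, had no reads at day 0. The part of the marker genes in the chemokine result was not tested.

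Cxcl10 and Cxcl9 are the interferon-induced ligands among the members. Cxcl10, also called IP-10, stood at 1.78, 1.65, 1.20 and 1.39 CPM at day 0. At day 1 it was 2.21 and 2.36 CPM in the 3-digit libraries and 12.5, 6.86 and 14.5 CPM in the 1-digit libraries, and at day 3 0.764, 5.58, 3.02, 1.01 and 2.64 CPM. Day 1 lay above day 0 without overlap, while day 3 spread to either side of it. Cxcl10 rose by 2.34 ± 0.66 on the log2 scale at day 1 (edgeR adjusted p = 0.0117), with 2.90 ± 0.51 in the 1-digit libraries (edgeR adjusted p = 0.000335) and 0.60 ± 0.58 in the 3-digit libraries (edgeR adjusted p = 0.427). At day 3 its log2 difference from day 0 was 0.79 ± 0.64 (edgeR adjusted p = 0.353).

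Cxcl9, also called MIG, was at its highest before injury: 0.345, 0.235, 0.632 and 1.21 CPM at day 0, against 0, 0.0908, 0.409, 0.114 and 0.241 CPM at day 1 and 0, 0.676, 0.248, 0, and 0 CPM at day 3. The ranges overlapped between all days. Pooled reads, 40 at day 0, 13 at day 1 and 17 at day 3, gave ratios to day 0 of 0.253 (95% exact counting interval 0.124 to 0.483) and 0.363 (0.193 to 0.655), which carry counting error only. Fitted without a filter on low counts, the log2 difference was -1.88 ± 1.00 at day 1 (edgeR adjusted p = 0.166) and -1.65 ± 0.97 at day 3 (edgeR adjusted p = 0.233), neither past the threshold. Of the comparisons of a single format with day 0, the 1-digit libraries of day 3, both at 0 reads, passed it (edgeR adjusted p = 0.0191), and the other 3 did not (edgeR adjusted p = 0.0527 to 0.442). Markers of T and NK cells, the cells that Cxcl9 and Cxcl10 attract, were near the floor throughout: the 11 listed genes summed to 2.35 to 3.99 CPM at day 0, 0.700 to 2.57 at day 1 and 0.305 to 1.91 at day 3. Cd8a, the one with enough counts to be tested, was lower by 2.23 at day 1 and by 2.93 at day 3 on the log2 scale (edgeR adjusted p = 0.00753 and 0.0028). It passed the filter on low counts through day 0, at 0.647 to 1.69 CPM against at most 0.409 CPM later, so this fall is a description and carries no support. The part of these cells in the values was not tested. Ifng, the interferon for which Cxcl9 is named, had 1 read over all 14 libraries.

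Cxcl12, the homeostatic ligand, was the member that fell. It stood at 141, 140, 156 and 101 CPM at day 0, at 40.9, 47.2, 37.9, 37.5 and 44.5 CPM at day 1 and at 102, 93.7, 147, 108 and 43.8 CPM at day 3. The day 1 libraries lay close together and wholly under day 0, in either number format. At day 3 replicates 1 to 4 lay within or just under the day 0 range, and replicate 5 lay within the range of day 1. The log2 fold change was -1.69 ± 0.25 at day 1 (edgeR adjusted p = 0.000222), with -1.75 ± 0.27 in the 1-digit and -1.61 ± 0.31 in the 3-digit libraries (edgeR adjusted p = 0.000136 and 0.00146). From day 1 to day 3 Cxcl12 rose by 1.25 on the log2 scale (edgeR adjusted p = 0.00593), and within each format as well (0.93 ± 0.30 and 1.37 ± 0.32, edgeR adjusted p = 0.0329 and 0.0153). Against day 0 its difference at day 3 was -0.44 ± 0.25 (edgeR adjusted p = 0.180) and it passed the threshold in the 1-digit libraries alone, at -0.82 ± 0.30 (edgeR adjusted p = 0.0335), and without day 3 replicate 3, at -0.66 (edgeR adjusted p = 0.0459). Markers of the stromal and endothelial cells that make Cxcl12 were also summed. The 7 fibroblast and pericyte markers reached 125 to 135 CPM at day 0 and 145 to 443 CPM at day 1, where Col3a1 and Pdgfrb rose, and the 6 endothelial markers 239 to 309 and 283 to 446 CPM, where Cdh5 rose and Tek fell. Proximal tubule markers summed to 10824 to 12180 CPM at day 0 and 2378 to 11651 CPM at day 1, and the 3 thick limb and distal tubule markers to 6134 to 8944 and 3212 to 5829 CPM, where Slc12a1 and Umod fell. These last sums did not overlap between the days, and the part of any of these cells in the Cxcl12 result was not tested.

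Cxcl14, the epithelial ligand, stood at 4.89, 3.41, 4.80 and 3.51 CPM at day 0, at 19.6, 24.3, 6.34, 10.1 and 11.7 CPM at day 1 and at 18.8, 5.52, 8.91, 24.0 and 10.7 CPM at day 3. All injured kidneys lay above all day 0 kidneys. It rose by 1.80 ± 0.45 on the log2 scale at day 1 (edgeR adjusted p = 0.00612) and by 1.71 ± 0.45 at day 3 (edgeR adjusted p = 0.0105), and it passed the threshold in either format on either day (log2 1.17 to 2.40).

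Cxcl16 rose by the smallest fold of the members called. Its values were 46.9, 47.5, 44.5 and 51.6 CPM at day 0, 61.4, 101, 90.2, 77.5 and 90.7 CPM at day 1 and 94.5, 91.7, 95.3, 78.8 and 71.0 CPM at day 3, with no overlap between day 0 and the later days. The log2 fold changes were 0.82 ± 0.15 at day 1 (edgeR adjusted p = 0.000808) and 0.86 ± 0.15 at day 3 (edgeR adjusted p = 0.000853), and lay between 0.65 and 0.98 within the formats. It was counted from 3180 reads at day 0, 7160 at day 1 and 7547 at day 3, and its standard errors were the smallest among the members tested.

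**Figure D2:**
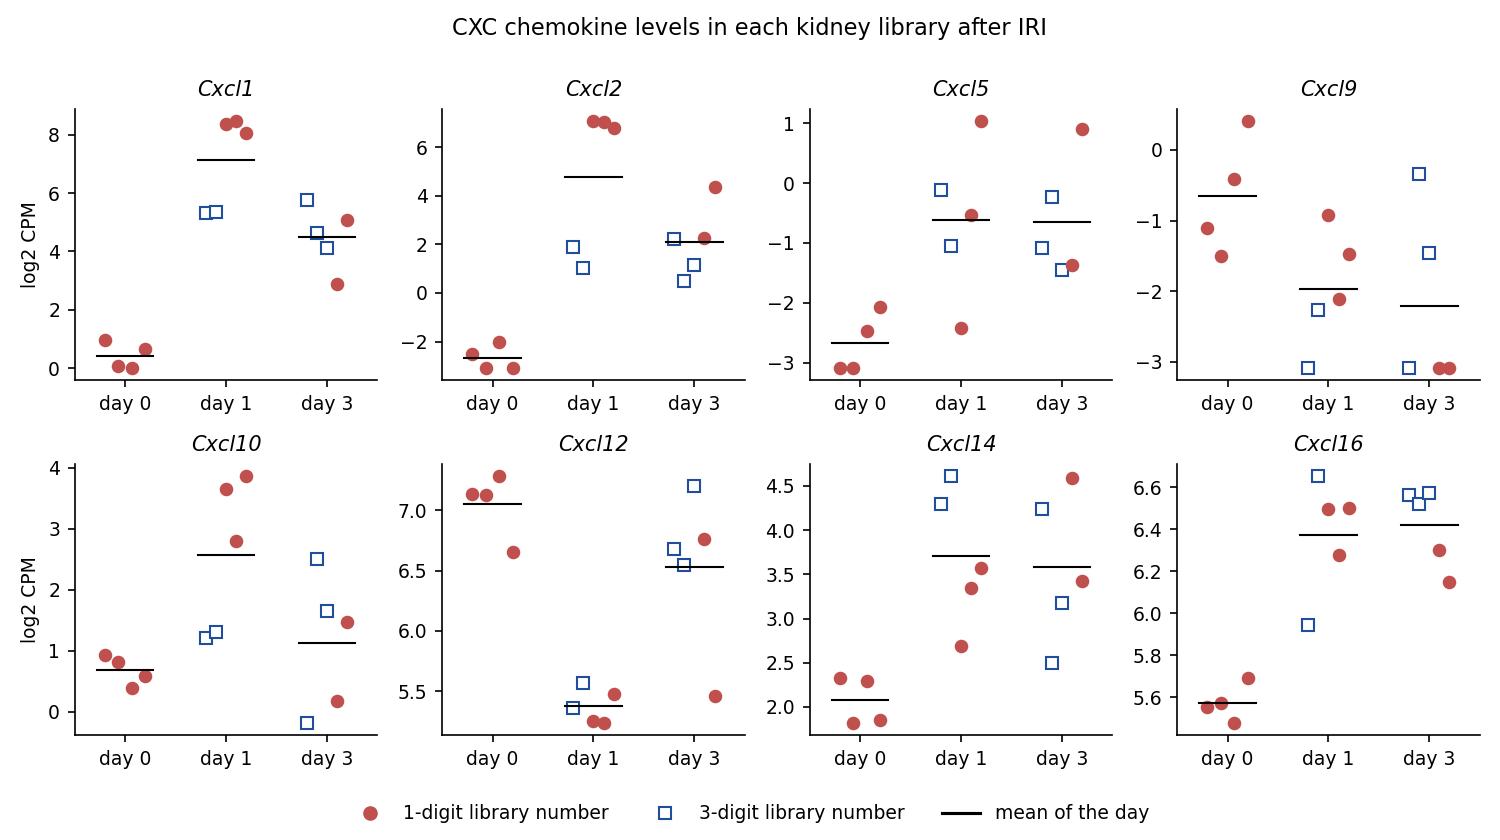
Level of each of the 8 CXC chemokines (y axis, log2 CPM with a prior count of 2 reads, a scale of its own in each panel) in every library by day, with filled circles for 1-digit and open squares for 3-digit library numbers and a bar at the mean of the day. Cxcl1 and Cxcl2 separated by format at day 1, and Cxcl12 lay under day 0 in all 5 libraries of day 1 and was above all of day 1 in 4 of the 5 libraries of day 3.

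Counted together, 6 members rose and 1 fell between day 0 and day 1, so that all 7 tested were called, on a background of 42.1% of all genes called (6020 of 14300, 3339 higher and 2681 lower). Their median log2 change was 2.34 against 0.01 over all genes. Cxcl2 and Cxcl5, with 3 reads each over day 0, passed the filter on low counts through the later days, where they were high, so the counts and medians describe the tested members and carry no support. At day 3 against day 0, 5 rose (Cxcl1, Cxcl2, Cxcl5, Cxcl14 and Cxcl16), on a background of 33.3%, with a median of 1.71 against 0.05 over all genes. From day 1 to day 3, Cxcl12 rose and Cxcl1 and Cxcl2 fell, on a background of 15.9%. Since these comparisons share libraries, their counts are not independent of each other. Levels did not overlap between day 0 and day 1 for 6 of the 7 tested members (42.0% of all tested genes), between day 0 and day 3 for 5 (33.4%) and between day 1 and day 3 for 0 (7.61%). Within the formats all 7 tested members were called in the 1-digit libraries of day 1 (background 58.5%) and 6 in the 3-digit libraries of day 1 (background 41.6%), all but Cxcl10. At day 3, 6 were called in the 1-digit libraries, all but Cxcl10 (background 53.7%), and 4 in the 3-digit libraries, namely Cxcl1, Cxcl2, Cxcl14 and Cxcl16 (background 32.4%). Between the later days, Cxcl1, Cxcl2, Cxcl10 and Cxcl12 were called in the 1-digit libraries (background 32.0%) and Cxcl12 in the 3-digit libraries (background 13.9%). Day 0 held 1-digit libraries only, so in 3-digit comparisons with day 0 the format and the injury cannot be told apart.

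**Figure D3:**
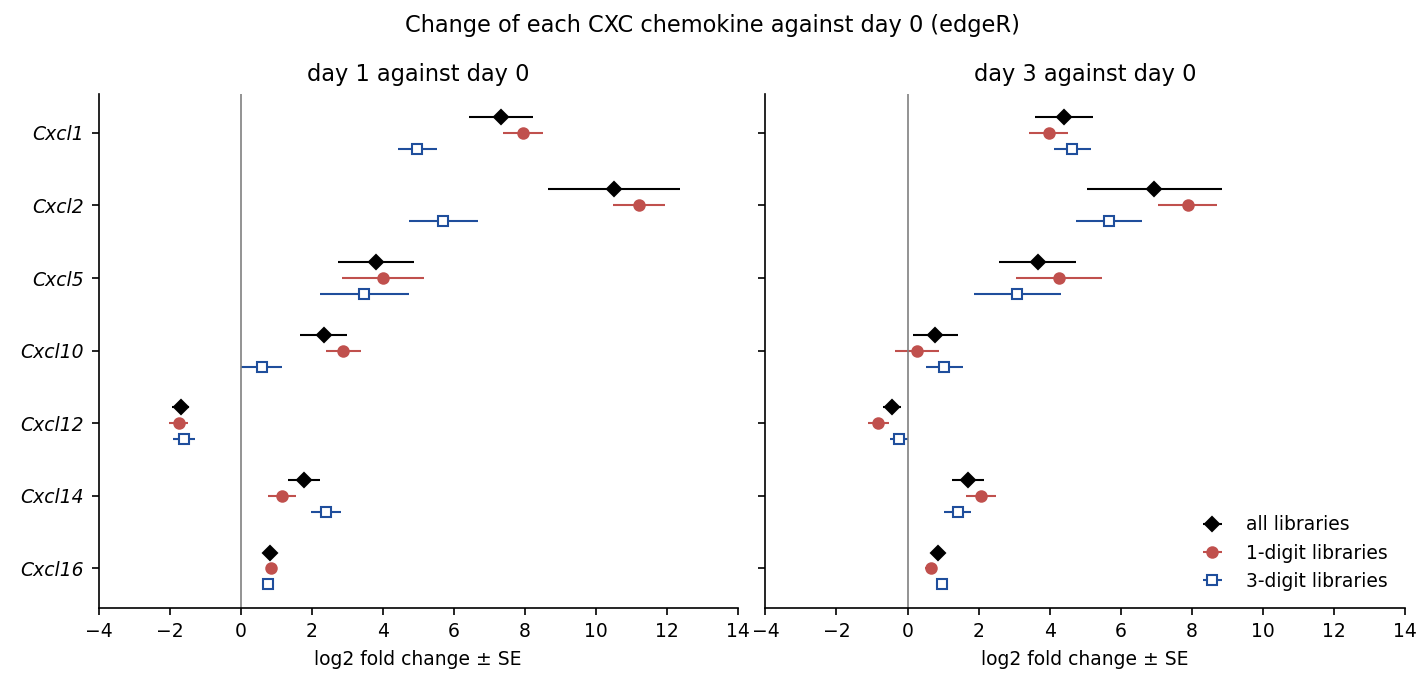
Log2 fold change with its standard error (x axis) of the 7 tested members at day 1 and day 3 against day 0, fitted over all libraries (diamonds), over the 1-digit libraries (circles) and over the 3-digit libraries (squares). At day 1 the 3-digit libraries gave 4.97 for Cxcl1 and 5.71 for Cxcl2 where the 1-digit libraries gave 7.94 and 11.22, whereas Cxcl12 and Cxcl16 stayed within 0.14 of each other between the formats.

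Within day 1, the 3-digit libraries were lower than the 1-digit libraries in Cxcl2 by 5.51 on the log2 scale (edgeR adjusted p = 0.000168), in Cxcl1 by 2.97 (edgeR adjusted p = 0.00207) and in Cxcl10 by 2.30 (edgeR adjusted p = 0.0134). In the same comparison Cxcl14 was higher by 1.23 (edgeR adjusted p = 0.0447). So 1 member was higher and 3 were lower, on a background of 35.0% of all genes. These 4 of the 7 tested members had levels that did not overlap between the formats, a share near the 60.7% of all tested genes that did not overlap either. Without day 1 replicate 1 or 2, which leaves 1 library with a 3-digit number, the Cxcl10 difference was -2.26 and -2.34 and that of Cxcl14 1.36 and 1.06. With replicate number as a further term the Cxcl10 call was lost (-2.23, edgeR adjusted p = 0.0693). The Cxcl14 call was lost without any of the day 0 libraries, without day 1 replicate 3, 4 or 5, or without day 3 replicate 3 (edgeR adjusted p = 0.0513 to 0.130). Cxcl12 and Cxcl16 differed by 0.14 ± 0.31 and -0.09 ± 0.17 between the formats (edgeR adjusted p = 0.748 and 0.722). Cell markers were compared in the same way. Day 1 neutrophil markers summed to 47.7 to 88.6 CPM in 3-digit and 47.0 to 210 CPM in 1-digit libraries, with edgeR adjusted p = 0.107 to 0.604 for the 6 tested, whereas 4 of 6 proximal tubule markers (Slc34a1, Slc5a2, Slc5a12 and Slc7a13) were lower and 3 of 7 fibroblast and pericyte markers (Col1a1, Col1a2 and Col3a1) higher in the 3-digit libraries, where 16.4% of all genes were lower and 18.6% higher. The proximal tubule list summed to 2378 to 3104 CPM in 3-digit and 7453 to 11651 CPM in 1-digit libraries, and the fibroblast list to 334 to 443 and 145 to 195 CPM. Of 6 urothelium markers, Krt5, Upk1b and Upk3b were higher in the 3-digit libraries, and the list summed to 17.1 to 103 CPM there and 5.04 to 8.69 CPM in 1-digit libraries. Krt5 stood at 8.41 CPM in day 1 replicate 1 and at 53.8 CPM in replicate 2. Within day 0 the list ran from 3.88 to 55.1 CPM, while Cxcl14 ran from 3.41 to 4.89 CPM. The part of these cell markers in the chemokine difference was not tested.

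Within day 3, Cxcl2 alone was called between the formats, lower in the 3-digit libraries by 2.23 on the log2 scale (edgeR adjusted p = 0.0164), on a background of 18.5%, and the call rested on single libraries. It was -0.85 without day 3 replicate 5, which leaves replicate 4 as the only 1-digit library, and -2.08 without replicate 3 (edgeR adjusted p = 0.0571). Levels of Cxcl2 and Cxcl16, 2 of the 7 tested members, did not overlap between the formats, against 41.4% of all tested genes. Cxcl1 differed by 0.66 ± 0.53 (edgeR adjusted p = 0.381), from -0.06 without day 3 replicate 4 to 2.14 without day 3 replicate 5. Either of these fits compares the 3-digit libraries with 1 library, replicate 5 or replicate 4. Cxcl12, at 0.59 ± 0.31 (edgeR adjusted p = 0.187), was higher in the 3-digit libraries by 1.38 without day 3 replicate 4, again with replicate 5 as the only 1-digit library. Cell markers differed here too. In the 3-digit libraries, 2 of 6 neutrophil markers (Ngp and Ltf) and 4 of 6 endothelial markers (Pecam1, Emcn, Kdr and Flt1) were lower, and 6 of 11 macrophage markers (with Cd68 lower) and 3 of 6 proximal tubule markers (Slc34a1, Slc7a13 and Lrp2) were higher. Of all 14300 genes tested, 1175 were lower and 1470 higher. Ngp and Ltf were high in day 3 replicate 5 only, at 66.1 and 7.27 CPM against 0.807 and 0.202 CPM in replicate 4. Also lower were 2 of 7 fibroblast and pericyte markers (Pdgfra and Pdgfrb), a list with 3 higher at day 1, and 2 of 5 podocyte markers (Podxl and Synpo). Of 3 thick limb and distal tubule markers, 1 was higher (Slc12a1). The macrophage list summed to 280 to 493 CPM in 3-digit and 134 to 144 CPM in 1-digit libraries, and the neutrophil list to 17.2 to 122 and 63.6 to 476 CPM, and their part in the chemokine values was not tested. The difference between the format effects of the days was itself tested: it was 3.63 for Cxcl1 (edgeR adjusted p = 0.00709), 3.28 for Cxcl2 (edgeR adjusted p = 0.0133) and 3.07 for Cxcl10 (edgeR adjusted p = 0.0303), and these 3 of the 7 members stood on a background of 17.6%. Cxcl14 went the other way, at -1.87 ± 0.62 (edgeR adjusted p = 0.0538), and passed the threshold without day 3 replicate 1 (-2.49, edgeR adjusted p = 0.00608), with total counts in place of TMM (-2.04, edgeR adjusted p = 0.0316) and in DESeq2 (-1.83, adjusted p = 0.0285). It was -2.35 without day 3 replicate 5, which leaves 1 library in a group. The Cxcl10 value lost its call without day 1 replicate 3 or 5 or day 3 replicate 2 (edgeR adjusted p = 0.0568 to 0.0611). It was 3.05, 3.12 and 2.53 without day 1 replicate 1, day 1 replicate 2 or day 3 replicate 4, each of which leaves 1 library in a group. The Cxcl2 value was 2.88 without day 1 replicate 2, with the same limit.

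The ratio of Cxcl1 to Cxcl2 separated the formats on both days, whereas the level of Cxcl1 overlapped between them at day 3. The level of Cxcl2 by itself also split the 10 libraries by format, narrowly, at 4.48 CPM or less in 3-digit and 4.71 CPM or more in 1-digit libraries. Per kilobase, Cxcl1 stood at 2.72, 2.98 and 2.68 times Cxcl2 in the 1-digit libraries of day 1 and at 1.69 and 1.83 times in those of day 3. In the 3-digit libraries it stood at 12.2 and 23.8 times at day 1 and at 13.4, 20.9 and 9.0 times at day 3. The 5 libraries of each format did not overlap on either day, although the level of Cxcl1 in those same libraries ran from 7.20 to 354 CPM. This ratio was chosen after its values were seen and carries no test, and day 0 gave no ratio, with at most 2 reads of Cxcl2 in a library. It is taken within a library and does not depend on the scaling between libraries.

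**Figure D4:**
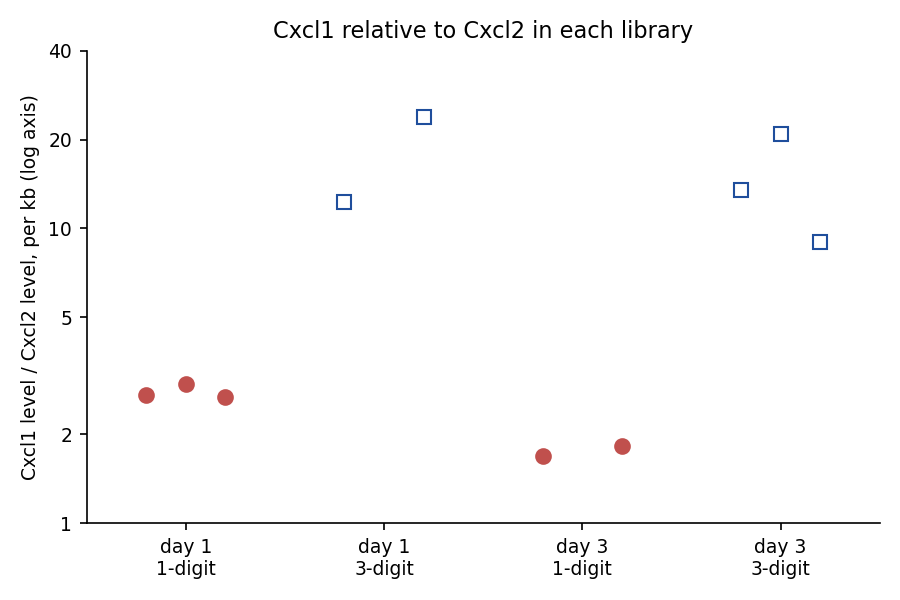
Level of Cxcl1 divided by that of Cxcl2 per kilobase of exon (y axis, log scale) in each library of days 1 and 3, by day and number format. The 1-digit libraries lie between 1.69 and 2.98 and the 3-digit libraries between 9.0 and 23.8 on both days.

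The receptors were tested where their counts allowed, in 3 of the 8 listed. Cxcr2, the neutrophil receptor for Cxcl1, Cxcl2 and Cxcl5, stood at 0.230, 0.118, 0.126 and 0.0605 CPM at day 0, at 3.83, 2.82, 2.52, 4.34 and 9.09 CPM at day 1 and at 9.16, 2.20, 5.20, 5.11 and 8.15 CPM at day 3. All injured kidneys lay above all day 0 kidneys, by 4.99 ± 0.60 on the log2 scale at day 1 (edgeR adjusted p = 5.38e-05) and 5.40 ± 0.61 at day 3 (edgeR adjusted p = 4.48e-05). With 9 reads over day 0, Cxcr2 passed the filter on low counts through the later days, and its fitted values depend on the prior count. Between day 1 and day 3, over which Cxcl1 and Cxcl2 fell, the log2 difference of Cxcr2 was 0.41 ± 0.41 (edgeR adjusted p = 0.524). Cxcr4, the signalling receptor for Cxcl12, rose by 1.84 ± 0.42 at day 1 (edgeR adjusted p = 0.00378), from 1.88 to 3.69 CPM at day 0 to 3.86 to 19.1 CPM, while its ligand fell. The rise was 2.27 ± 0.31 in the 1-digit libraries (edgeR adjusted p = 5.66e-05), and the 3-digit libraries gave 0.79 ± 0.35 (edgeR adjusted p = 0.0885). At day 3 its difference from day 0 was 0.85 ± 0.41 (edgeR adjusted p = 0.125), with 0.50 ± 0.36 in the 1-digit and a called rise of 1.04 ± 0.31 in the 3-digit libraries (edgeR adjusted p = 0.261 and 0.0220), and at day 1 it was lower in 3-digit than in 1-digit libraries, by 1.49 (edgeR adjusted p = 0.00956). Ackr3, the scavenger of Cxcl12 and the most abundant receptor of the list at a mean of 87.0 CPM, differed from day 0 by 0.45 ± 0.28 at day 1 (edgeR adjusted p = 0.213) and by -0.06 ± 0.28 at day 3 (edgeR adjusted p = 0.885). The other receptors of the list were rare. Cxcr6, the partner of Cxcl16, had 36 reads at day 0, 2 at day 1 and 5 at day 3, with ratios to day 0 of 0.0432 (95% exact counting interval 0.00504 to 0.168) and 0.119 (0.0363 to 0.303), for counting error only. Cxcr3, the partner of Cxcl9 and Cxcl10, had 16, 2 and 6 reads, and Cxcr1, Cxcr5 and Ackr1 had 1, 9 and 10 reads over all libraries.

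Among the 7 other ligands, 4 of the 6 tested rose at day 1 and at day 3, namely Cxcl3, Cxcl17, Pf4 and Ppbp, where 23.3% and 19.5% of all genes rose. All 4 were low at day 0, with 1, 2, 27 and 17 reads over its libraries, and passed the filter on low counts through the later days, so their count is a description. Cxcl3, the close relative of Cxcl2, had 1 read at day 0, 128 at day 1 and 201 at day 3, ratios of 99.6 (95% exact counting interval 17.6 to 3964) and 172 (30.5 to 6813), for counting error only. Its log2 difference from day 1 to day 3 was 0.61 ± 0.70 (edgeR adjusted p = 0.582). Cxcl17, a mucosal ligand, had 2 reads at day 0 and 132 and 130 later, and at day 1 it was higher in 3-digit than in 1-digit libraries, by 2.16 (edgeR adjusted p = 0.0155). Pf4 (Cxcl4) and Ppbp (Cxcl7), chemokines of platelet granules, rose by 3.33 ± 0.51 and 2.49 ± 0.77 at day 1 (edgeR adjusted p = 0.000288 and 0.0187) and by 4.23 ± 0.52 and 2.55 ± 0.77 at day 3 (edgeR adjusted p = 9.78e-05 and 0.0208). The 5 platelet markers summed to 4.77 to 6.19 CPM at day 0, 2.91 to 13.2 at day 1 and 4.90 to 10.7 at day 3, with Treml1 at 0 reads at day 0, and Itga2b, the tested one, differed by 0.53 ± 0.41 at day 1 (edgeR adjusted p = 0.308), with 1.03 in the 1-digit and -0.82 in the 3-digit libraries (edgeR adjusted p = 0.00332 and 0.0429). Their part in the rise of Pf4 and Ppbp was not tested. Cxcl11 and Cxcl13, ligands of Cxcr3 and Cxcr5, differed from day 0 by 0.05 ± 0.70 and 1.11 ± 0.93 at day 1 (edgeR adjusted p = 0.958 and 0.350), and Cxcl15 had 2 reads over all libraries.

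**Figure D5:**
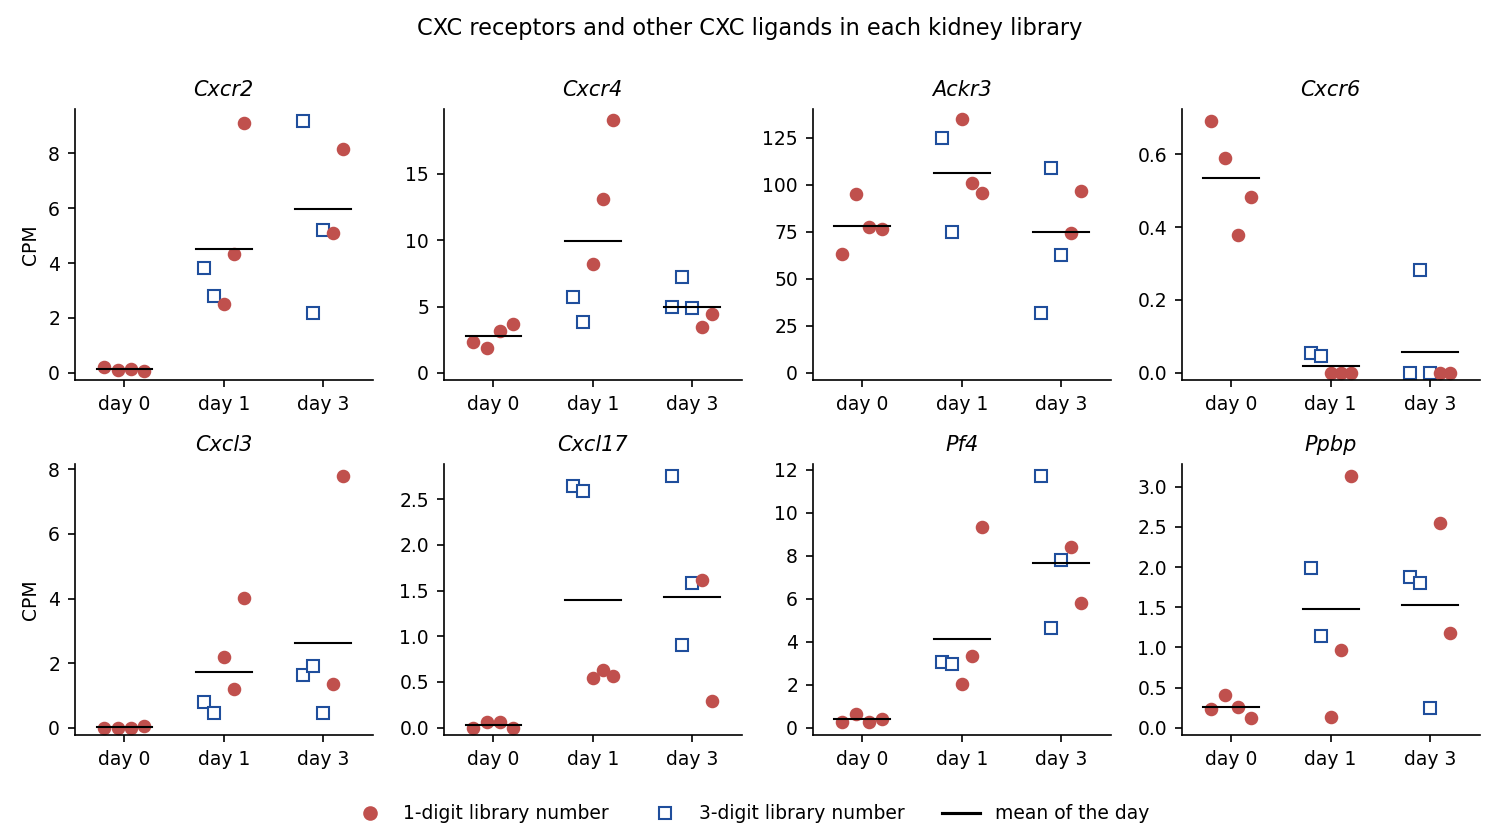
Level in CPM (y axis, a scale of its own in each panel) of 4 CXC receptors and 4 other CXC ligands in every library by day, with filled circles for 1-digit and open squares for 3-digit library numbers and a bar at the mean of the day. Cxcr2, Cxcl3, Cxcl17 and Pf4 lay above day 0 in all libraries of days 1 and 3, and Cxcr6 lay under it.

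The signalling genes that act on these ligands were counted next. Of 17 genes of the NF-kB and IL-17 arm, 15 rose at day 1 (23.3% of all genes) and 8 at day 3 (19.5%). Tnfrsf1a, the main receptor for TNF, rose by 1.37 ± 0.21 at day 1 (edgeR adjusted p = 0.000271) and 1.02 ± 0.21 at day 3 (edgeR adjusted p = 0.00235). Nfkbiz, the co-activator of IL-17 targets, rose by 2.67 ± 0.23 at day 1 (edgeR adjusted p = 4.88e-06), and it was named after its value was seen. Il17ra and Tnf were the genes not called at day 1, at 0.65 ± 0.28 and 1.94 ± 0.80 (edgeR adjusted p = 0.0732 and 0.0650). Between the formats of day 1, 7 of the 17 were lower in the 3-digit libraries, as Cxcl1 and Cxcl2 were, and 2 were higher (16.4% and 18.6% of all genes). Among the lower ones was Zfp36, whose product destabilises transcripts of cytokines and chemokines. Zfp36 rose by 1.91 ± 0.49 on the log2 scale at day 1 against day 0 (edgeR adjusted p = 0.00665) and was lower by 2.00 in the 3-digit libraries of that day (edgeR adjusted p = 0.00369). The higher ones were Nfkb2 and Il17rc, by 1.02 and 1.03 (edgeR adjusted p = 0.00551 and 0.000353). Of 11 tested genes of the interferon arm, 7 rose at day 1 and 3 at day 3 (Ifngr1, Ifngr2 and Irf1), the latter a share near the 19.5% of all genes. By format, 9 of the 11 rose in the 1-digit libraries of day 1 and 3 in the 3-digit libraries (again Ifngr1, Ifngr2 and Irf1), where 58.5% and 41.6% of all genes were called in either direction. Ifngr1, a receptor chain for interferon gamma, rose by 1.35 ± 0.14 at day 1 (edgeR adjusted p = 2.23e-05), and Jak1, the kinase that it engages, by 0.51 ± 0.14 (edgeR adjusted p = 0.0102).

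Of 8 genes that cut, release or display chemokines, 5 rose at day 1 (Mmp2, Mmp9, Mmp14, Sdc1 and Sdc4) and 1 fell, and 4 rose at day 3 (the same but Sdc4), on the same backgrounds of 23.3% and 19.5% rising. Adam10, the sheddase of Cxcl16, differed from day 0 by -0.33 ± 0.20 at day 1 (edgeR adjusted p = 0.189) and 0.32 ± 0.20 at day 3 (edgeR adjusted p = 0.238). In the 1-digit libraries of day 1 it fell by 0.63 (edgeR adjusted p = 0.00587), while the 3-digit ones gave 0.02 ± 0.19 (edgeR adjusted p = 0.942). Dpp4, the exopeptidase that inactivates Cxcl12 and Cxcl10, was the gene that fell, by 1.31 on the log2 scale (edgeR adjusted p = 0.00106). Mmp9, with 9 reads over day 0 and past the filter on low counts through the later days, rose by 5.14 ± 0.95 at day 1 (edgeR adjusted p = 0.000984), and the heparan sulfate carriers Sdc1 and Sdc4, which hold chemokines at the cell surface, by 2.54 ± 0.29 and 1.36 ± 0.20 (edgeR adjusted p = 3.46e-05 and 0.000257).

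Last, genes were ranked by how closely they tracked each member over the 10 injured libraries, as the mean absolute difference of the log2 change from day 0 among the genes with a mean of at least 1 CPM (13325 compared for each member but Cxcl5, with 13326). This is a description over libraries that share their day 0 reference. The nearest to Cxcl1 were Socs3 (0.98), the feedback inhibitor of IL-6 family signals, Lif (1.00), a cytokine of that family, and Il1f6 (1.05), an IL-1 family ligand. The nearest to Cxcl2 was Cxcl1 (1.34), followed by the AP-1 member Fosl1 (1.36) and the decoy receptor Il1r2 (1.45). The interferon-induced Isg15 stood second for Cxcl10 (0.44), after Plk2 (0.41) and before the phosphatase Dusp14 (0.48). Cxcl12 had the closer company of Kbtbd11 (0.22), 4930426D05Rik (0.23) and St8sia6 (0.24), all lower at day 1, and Cxcl16 that of Dsel (0.15), Evl (0.16) and Kctd3 (0.18). Cxcl14 was nearest to Acsl4 (0.32), a long-chain acyl-CoA synthetase, Serinc2 (0.34) and Psat1 (0.36), an enzyme of serine synthesis, and Cxcl5 to AB124611 (0.55), Masp1 (0.57) and Cyp3a13 (0.64).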

How the data were processed

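The authors deposited raw counts of reads per gene symbol from STAR for 14 kidney libraries, made from total RNA with an Illumina TruSeq kit. The submitters' processing notes name Trimmomatic, STAR and mm10, with versions and annotation not given in the sources used here. Counts of column 4, the strand that held 98.5% to 98.7% of strand-assigned reads, were used, and the 4 summary rows that name no gene were left out. Counts were normalised with TMM and tested with edgeR 4.0.16 in R 4.3.3 (quasi-likelihood test, filter by expression, Benjamini-Hochberg threshold 0.05), with 1 term per day, or per day and number format, over all 14 libraries. The SE is the absolute log2 fold change divided by the square root of F. In simulated counts for day 1 against day 0, 176 of 200 genes changed by a log2 of 2 were recovered among 14140 genes, with 8 false calls. Coordinates and exon lengths came from GENCODE M21 and promoters from RefSeq. Alternatives were unstranded counts, other scalings and filters, DESeq2 1.42.0, each library left out, each format alone and a replicate block.

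The members and lists were chosen with earlier results of these data known. Named in the text were the 8 members, all other CXC ligands and receptors, the 2 most abundant genes of other lists, genes behind counts of 5 or fewer, and the 3 genes closest to each called member. Nfkbiz was named outside these rules, after its value was seen.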

Additional observations from a re-analysis of the deposited data

Results flagged for a closer look

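For 3 members the difference between 3-digit and 1-digit libraries was not the same at day 3 as at day 1, by a test of that difference. The format effect of day 3 minus that of day 1 was 3.63 on the log2 scale for Cxcl1 (edgeR adjusted p = 0.00709), 3.28 for Cxcl2 (edgeR adjusted p = 0.0133) and 3.07 for Cxcl10 (edgeR adjusted p = 0.0303). At day 1 the 3-digit libraries were lower in all 3 genes, by 2.97, 5.51 and 2.30, and at day 3 their differences were 0.66, -2.23 and 0.77. Among 24 sets of values, the 8 members on each of 3 days, no library stood apart by the gap to its nearest neighbour, where chance gives about 1 in 20 sets.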

How the results depend on the processing

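Over the alternatives tried, 336 of 363 log2 values of members kept direction and side of the threshold, and 511 of 564 with a library left out. The number of members called was, with libraries left out, 6 to 7 at day 1 and 4 to 6 at day 3 against day 0, 2 to 4 between the days, 2 to 4 between the formats of day 1, 0 to 2 between those of day 3 and 2 to 4 for the difference of the format effects. It was 3 at day 3 against day 0 with at least 10 counts in every library, where 5 members could be tested, and 1 between day 3 and day 1 with the format as a term or with the 3-digit libraries alone. Fits of the formats without day 1 replicate 1 or 2 or day 3 replicate 4 or 5 leave 1 library in a group, and the ranges for the formats include them. Replicate numbers did not pair the libraries (correlations of same-numbered deviations -0.17 to 0.26, 4 of 14 libraries closest to their own number). With the replicate block, 2 members were called between the formats of day 1 and 0 between those of day 3 (edgeR, 1 at an unadjusted p under 0.05), which the filter of 10 counts also took to 0 (edgeR, 0 of 5 at an unadjusted p under 0.05), and the day 3 against day 1 value of Cxcl2 became -2.83 (edgeR adjusted p = 0.0529). All genes called with the block numbered 2507 (5001 without it) for the formats of day 1, 0 (2645 without it) for those of day 3 (edgeR, 2137 at an unadjusted p under 0.05) and 1608 (2510 without it) for their difference. Without the block, all genes called for the formats of day 3 numbered 1144 without day 3 replicate 3, 1176 without replicate 2 and 4771 without replicate 1. The 1-digit libraries alone called 8119 genes at day 3 against day 0 and 5194 between the days, where a fit of those 2 days called 831 and leaving out day 1 replicate 3, 4 or 5 or day 3 replicate 1 or 3 gave 1269 to 1460. Total counts in place of TMM shifted the median of all genes to 0.24 (formats of day 1), 0.19 (day 3 against day 0), 0.17 (day 3 against day 1) and -0.19 (difference). The share of higher calls moved with it, from 2656 against 2345 lower to 3909 against 1439, from 2783 against 1974 to 3625 against 1286, from 1219 against 1057 to 1721 against 487 and from 1302 against 1208 to 979 against 1819.

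No value passed the threshold under a setting that turned its sign. Between day 3 and day 1, Cxcl10 was 0.44 in the 3-digit libraries, and the 1-digit libraries gave 0.88 for Cxcl14, -0.22 for Cxcl16 and 0.26 for Cxcl5. Cxcl16 was -0.066 there with unstranded counts and Cxcl5 0.017 with total counts, which gave 0.13 for Cxcl16 between the formats of day 1. Under the block Cxcl5 was 2.29 and 2.56 between the formats and 0.26 for their difference. Leaving out a library gave -0.063 to 2.14 for Cxcl1 and -1.26 (past the threshold without day 3 replicate 1, edgeR adjusted p = 0.0267) to 0.057 for Cxcl14 between the formats of day 3, -0.49 to 0.21 for Cxcl16 between those of day 1, -0.076 to 1.24 for Cxcl12 in the difference (the latter without day 3 replicate 4, which leaves 1 library in a group), and -0.39 to 0.18 for Cxcl14, -0.067 to 0.11 for Cxcl16 and -0.44 to 0.056 for Cxcl5 between day 3 and day 1. The cause was not tested. Cxcl5 and Cxcl9 rest on few reads at this depth.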
